A study of Arabidopsis thaliana with 6 samples.

Results

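The seed storage protein genes described here are 9 loci of Arabidopsis thaliana, out of 27444 protein-coding genes on the nuclear chromosomes. They are the 4 cruciferin genes CRA1 (AT5G44120), CRU2 (AT1G03880), CRU3 (AT4G28520) and AT1G03890, and the 5 genes of 2S albumins, SESA1 (AT4G27140), SESA2 (AT4G27150), SESA3 (AT4G27160), SESA4 (AT4G27170) and SESA5 (AT5G54740). Binding of the chromatin protein DEK3 was asked of each locus. A locus counted as bound in a line where a peak of that line overlapped the gene span by at least 1 bp, and peaks within 1 kb of the span were looked for as well. The loci were chosen by family after peaks of the OE17-4 list had been seen in several of them, so they were selected on the presence of peaks in these same lists. Their counts of peaks are therefore a description, and no test was made of them.

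The series measured, by chromatin immunoprecipitation and sequencing (ChIP-seq), where DEK3 lies along the Arabidopsis genome. The 3 ChIP libraries came from 3 independent overexpressor lines in the Col-0 ecotype, named OE3-1, OE9-1 and OE17-4. Every line carries AtDEK3 with a CFP tag, cyan fluorescent protein, and an antibody against GFP was used to pull down the tagged protein. The material was nuclei of whole seedlings kept for 14 days on soil with 16 h of light and 8 h of dark. The labels give no promoter of the transgene, and with 1 library a line, line and library cannot be told apart. The 3 input libraries were not analysed here. Expression was not measured in these files, so the label of the tissue could not be set against marker genes.

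The OE3-1, OE9-1 and OE17-4 lists held 5332, 3733 and 3426 peaks, with 1235876, 814853 and 549029 reads in them. How deeply each library was sequenced is unknown, because reads outside peaks are not listed. Limits of the lists also differed. The smallest peaks listed held 107, 40 and 25 reads in the same order, and the highest Wilcoxon filter p, apart from rows whose region is written with 3 dots, was 0.1, 0.1 and 9.99e-05. OE17-4 peaks were wider, with a median of 137 bp against 62 bp in OE3-1 and 79 bp in OE9-1. The 5 OE17-4 peaks described below held 116 to 283 reads, more than the smallest peak of each list. Their Wilcoxon filter p was at most 6.85e-05, below the highest of each list. With depth unknown and widths unlike, these values do not tell whether such peaks would be listed in another line. The part of peak width in the differences between lines was not tested.

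Seed storage proteins are made in the maturing embryo and laid down in protein storage vacuoles, from which they feed the seedling after germination. Cruciferins are 12S globulins, built as precursors that vacuolar processing enzymes cut into disulfide-linked chains. The 2S albumins are small, sulphur-rich proteins, also cut from a precursor. Their genes are switched on in the embryo by LEC1, LEC2, FUS3 and ABI3 together with bZIP factors. In vegetative tissue they are kept silent, with the VAL repressors among the factors needed for this. DEK3 is a DEK-domain protein of plant chromatin that binds histones.

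Peaks lay in 5 of the 9 genes, and all 5 were OE17-4 peaks. The cruciferin genes CRA1, CRU2 and CRU3 and the albumin genes SESA2 and SESA5 each held 1 peak. No peak of OE3-1 or OE9-1 lay in any of the 9 spans or within 1 kb of one. In OE3-1, OE9-1 and OE17-4 the number of bound members was thus 0, 0 and 5, a mean of 1.67 ± 2.89 (SD, n = 3). The choice of the loci by their OE17-4 peaks shaped this spread, so it is a description only. Over all protein-coding genes, 9.22% had an OE17-4 peak in the span, 15.7% an OE3-1 peak, 5.26% an OE9-1 peak and 26.8% a peak of any line. Within 1 kb of the span these shares were 13.9%, 22.5%, 12.2% and 41.0%, and the members' counts were still 5, 0, 0 and 5. The OE17-4 share was among the values that led to the choice of these genes, so nothing is read from it. A gene without a listed peak may hold reads below the authors' limits.

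Long genes meet more peaks, so the share was also taken over all genes of like length, the members included. The cruciferin spans ran from 1823 to 2396 bp, close to the median of 2078 bp over all protein-coding genes. Among the 5098 protein-coding genes in that range of length, 9.02% had an OE17-4 peak, 13.6% an OE3-1 peak and 4.12% an OE9-1 peak. Albumin spans were short, from 688 to 830 bp, and among the 908 genes in that range 4.63% had an OE17-4 peak, 4.30% an OE3-1 peak and 1.76% an OE9-1 peak. Beside these shares stand 3 of 4 cruciferin and 2 of 5 albumin genes in OE17-4, and 0 in both other lines.

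**Figure D1:**
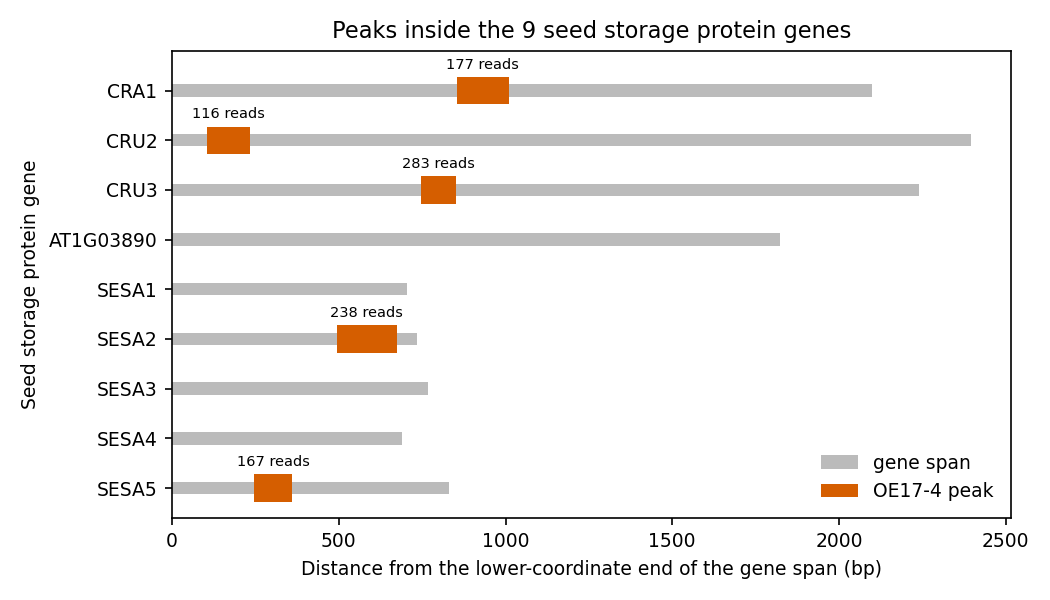
Gene spans (grey bars) of the 9 seed storage protein genes and the peaks inside them (orange, OE17-4), by distance in bp from the lower-coordinate end of each span, with the reads of each peak above it. 5 genes hold 1 peak each, at different depths in the gene, and 4 hold none.

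CRU3, which encodes cruciferin C, held the strongest of the 5 peaks by reads and by false discovery rate (FDR). Its OE17-4 peak spanned chr4:14088301-14088405, 105 bp, with 283 reads and an authors' FDR of 0.0057%. That is 2.08 times the median of the OE17-4 list, which was 136 reads. In the list 95.9% of the 3426 peaks had a higher FDR and 96.7% had fewer reads. At 270.0 reads per 100 bp it was also dense, with 98.2% of the list below it. The peak midpoint lay 797 bp from the lower end of the span and 1443 bp from the upper end.

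SESA2, a gene of the albumin array on chromosome 4, came next. Its OE17-4 peak at chr4:13609834-13610014 was the widest of the 5, at 181 bp, and held 238 reads with an FDR of 0.02%. It covered 24.6% of the short span, and its midpoint lay 151 bp from the upper end. In the list 91.6% of peaks had a higher FDR and 92.9% fewer reads. By FDR and reads, CRU3 and SESA2 were thus near the top of the OE17-4 list, and the remaining 3 peaks were not. The Wilcoxon filter p ordered the peaks differently. It was 6.85e-05 in CRU3, the highest of the 5, and only 10.4% of the list had a higher one. That share was 12.1% for CRU2, 54.2% for SESA2 and 66.1% for CRA1.

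SESA5, the albumin gene that lies alone on chromosome 5, had its OE17-4 peak at chr5:22238603-22238717, with 167 reads and an FDR of 0.65%. The peak was 115 bp wide, covered 13.9% of the span and had its midpoint 302 bp from the lower end. Its Wilcoxon filter p of 6.20e-07 was the lowest of the 5, and 80.4% of the list had a higher one. Reads were fewer in 72.5% of the list, so SESA5 stood above the middle of the list without reaching its top.

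CRU2, the cruciferin B gene, had the fewest reads. Its OE17-4 peak at chr1:985855-985984 was 130 bp wide and held 116 reads with an FDR of 1.11%. That is 0.853 times the median of the list, and 29.2% of the list had fewer reads. The midpoint lay 168 bp from the lower end of the span, at 7.04% of its length. It was the peak closest to a gene end, relative to length.

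CRA1, which encodes cruciferin A, had a peak of middling reads and a weak FDR. The OE17-4 peak at chr5:17757092-17757246 was 155 bp wide and held 177 reads with an FDR of 4.78%, close to the highest FDR of the list, 4.99%. Only 2.13% of the list had a higher FDR, although 77.5% had fewer reads. SESA5 held 10 reads fewer with an FDR of 0.65%, so reads and FDR ranked these peaks differently. The midpoint of the CRA1 peak lay 931 bp from the lower end, the deepest of the 5 inside its gene.

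**Figure D2:**
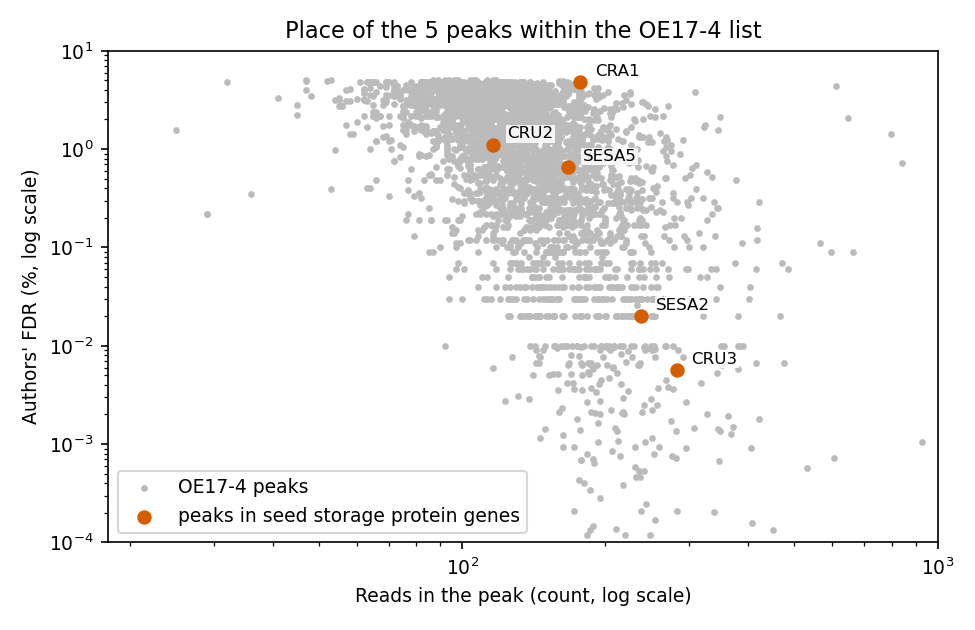
Authors' FDR in percent against reads per peak, both on log scales, for the peaks of the OE17-4 list (grey) and the 5 peaks in seed storage protein genes (orange). CRU3 and SESA2 lie low in FDR with 283 and 238 reads, while CRA1 lies at an FDR of 4.78%, and 26 peaks outside the axes are not drawn.

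Reads of a peak came from both strands in each of the 5 genes. Forward and reverse reads were 142 and 141 in CRU3, 83 and 84 in SESA5, 109 and 129 in SESA2, 51 and 65 in CRU2, and 72 and 105 in CRA1. The strands were nearly even in CRU3 and SESA5 and least even in CRA1. The forward share was 40.7% in CRA1 (exact 95% binomial interval 33.4 to 48.3%), an interval that leaves out an even split. In CRU2 it was 44.0% (34.8 to 53.5%), in SESA2 45.8% (39.3 to 52.4%), in SESA5 49.7% (41.9 to 57.5%) and in CRU3 50.2% (44.2 to 56.2%), and these 4 intervals hold an even split. The intervals cover counting error only, since reads of copied fragments are not independent molecules. The normalized difference between strands, a fraction given by the authors, had a median of 0.08 over the 5 peaks, against 0.07 over the list, and 0.19 in CRA1 was the highest of the 5.

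**Figure D3:**
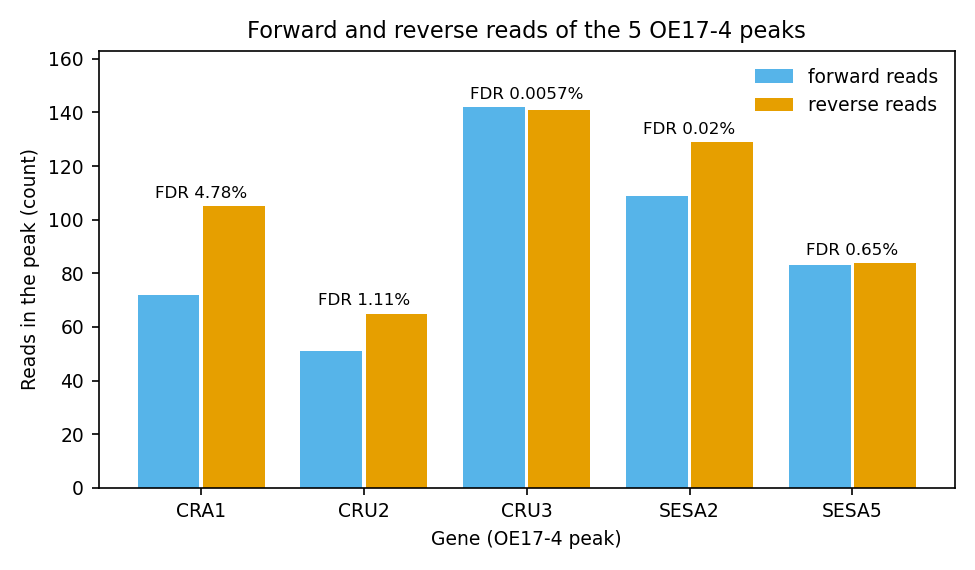
Reads on the forward (blue) and reverse (orange) strand in each of the 5 OE17-4 peaks of seed storage protein genes, as counts, with the authors' FDR above each pair. CRA1 has 72 forward and 105 reverse reads, while CRU3 has 142 and 141.

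The peaks differed in size and in place. The narrowest, in CRU3, was wider than 16.1% of the OE17-4 list, and the widest, in SESA2, than 85.6%. Widths ran from 105 to 181 bp, with a median of 130 bp beside 137 bp in the list, and reads from 116 to 283, with a median of 177 beside 136. All 5 peaks lay wholly inside the span of the gene. Midpoints were 151, 168, 302, 797 and 931 bp from the nearer gene end in SESA2, CRU2, SESA5, CRU3 and CRA1. Over the 2546 OE17-4 midpoints in protein-coding genes the median of this distance was 473 bp, with 20.0% under 250 bp, 32.6% from 250 to 500 bp and 47.5% farther in. The members thus fell in each of these classes, with 2, 1 and 2 peaks. Counted from the lower end, midpoints lay at 7.04%, 35.6%, 36.4%, 44.4% and 79.4% of the span in CRU2, CRU3, SESA5, CRA1 and SESA2. The gene table used gives no strand or exons, so start, end, exons and introns were not told apart.

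Gaps within the albumin array on chromosome 4 were measured as well. SESA1 to SESA4 lie within 6.96 kb, with gaps of 1.31, 1.72 and 1.03 kb between neighbours, and SESA2 alone held a peak. That peak lay 1.80 kb from SESA1, 1.78 kb from SESA3 and 3.58 kb from SESA4. SESA1 and SESA3 would enter the count only if peaks up to 2 kb away were taken, and no member had a peak between its span and 1 kb. The array genes encode similar proteins, and how reads that match several places were handled is not given in the sources used here. Reads of SESA2, and the lack of listed peaks in SESA1, SESA3 and SESA4, are therefore uncertain where the copies share sequence. Shared sequence was not tested. The pair CRU2 and AT1G03890 lie 1.05 kb apart on chromosome 1, and the CRU2 peak was 3.21 kb from AT1G03890, which held none.

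Gaps to the nearest peaks of the other lines were measured too. The loci were chosen for OE17-4 peaks, and gaps over all genes were not taken. Whether these gaps are long or short for a gene is therefore not known. The gap from a member to the nearest OE9-1 peak ran from 3.62 kb at AT1G03890 to 11.7 kb at SESA1, with a median of 6.49 kb. To the nearest OE3-1 peak it ran from 6.21 kb at CRA1 to 63.5 kb at CRU2, with a median of 23.4 kb, although the OE3-1 list is the longest. The 4 members without a peak had an OE17-4 peak 1.78 to 3.58 kb away, in each case that of a neighbouring storage protein gene.

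**Figure D4:**
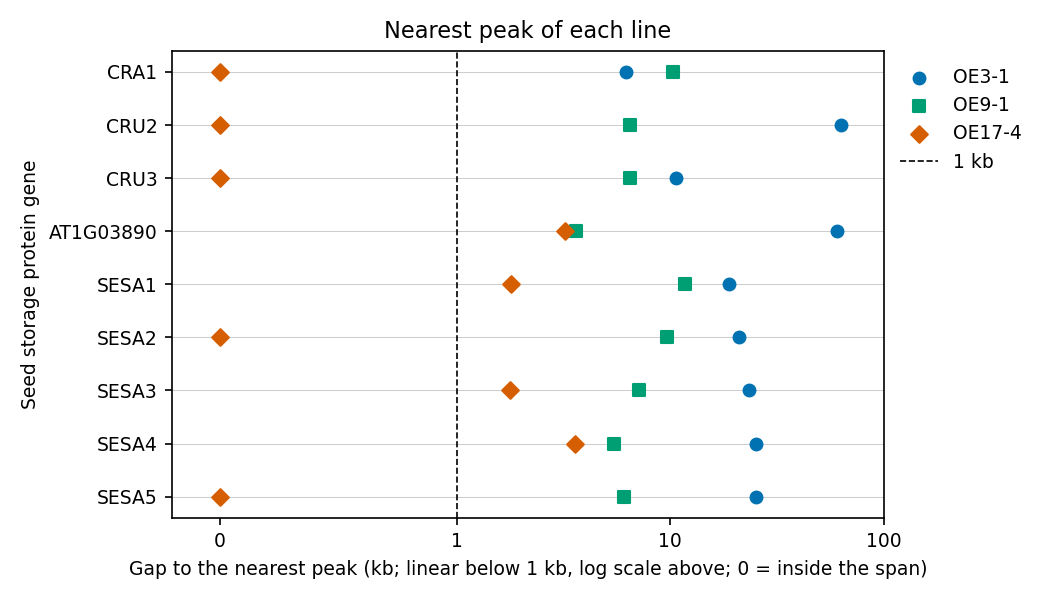
Gap in kb from each of the 9 genes to the nearest peak of OE3-1 (circles), OE9-1 (squares) and OE17-4 (diamonds), where 0 is a peak inside the span and the axis is linear up to 1 kb (dashed line) and logarithmic beyond. OE17-4 is at 0 for 5 genes, and both other lines lie beyond 3 kb for all 9.

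Genes beside the members were counted as well, without matching for length, and they are too few to read much from the shares. Of 30 other protein-coding genes within 10 kb of a member, 0 had an OE17-4 peak, against 9.22% of all. OE9-1 peaks lay in 5 of them (16.7%, against 5.26% of all) and OE3-1 peaks in 2 (6.67%, against 15.7%). The casein kinase gene ckl7 (AT5G44100), near CRA1, had an OE3-1 peak of 156 reads. Its neighbour AT5G44090 had an OE3-1 peak of 337 reads and an OE9-1 peak of 181. The remaining 4 OE9-1 genes were HAE (AT4G28490) near CRU3, a receptor kinase of floral organ shedding, ABCI19 (AT1G03905) near AT1G03890, and AT5G54720 and AT5G54780 near SESA5. Their OE9-1 peaks held 198, 248, 194 and 210 reads in that order.

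Having OE17-4 peaks and none of the other lines was common. It held for 1895 protein-coding genes, or 6.90%, and for 904 genes as long as the members, the members left out. By summed reads in the span over the 3 lines, the genes closest to the median of 177 reads of the 5 bound members were AT1G25370, ZW2 (AT1G58330) and AT5G28463 with 177 reads each. AT1G11125 and AT1G60830 followed with 178 reads each. A likeness of this kind rests on 1 line and 1 number.

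Other genes of the storage programme were counted in the same way. Of 29 other seed proteins, 2 had an OE17-4 peak (6.90%), 3 an OE3-1 peak (10.3%) and 0 an OE9-1 peak, each share below that of all genes in the same line, with a median span of 1299 bp against 2078 bp. The OE17-4 pair were the vicilin-like globulin gene AT2G28490, with 279 reads at chr2:12180587-12180716 and an FDR of 0.10%, and the seed maturation protein gene SMP1 (AT3G12960), with 147 reads and an FDR of 2.62%. Vicilins are the other class of seed globulin, and 1 of the 4 vicilin-like genes was bound. None of the 7 genes of oil body proteins, such as oleosins, had a peak in any line, beside 26.8% of all protein-coding genes. Their median span was 1444 bp, and 7 genes are too few to read much from this. The OE3-1 peaks lay in TIP3;1 (AT1G73190), an aquaporin of the storage vacuole membrane, with 207 reads, and in AT2G42560 and AT3G53040, both of the late embryogenesis abundant class, with 285 and 221 reads. The authors' gene column named SRPK4 for the peak in AT3G53040. Of these 5 genes none had peaks in more than 1 line. That share was not taken over all protein-coding genes, so nothing is read from it.

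Among 16 regulators of seed maturation, 2 had an OE17-4 peak, 3 an OE3-1 peak and 1 an OE9-1 peak, or 12.5%, 18.8% and 6.25%. These shares were near those of all protein-coding genes, 9.22%, 15.7% and 5.26%. LEC2, an embryo factor that acts on storage protein genes, had an OE17-4 peak of 225 reads, and ABI4, a factor of abscisic acid response, had one of 150. The embryo factor FUS3 had an OE3-1 peak of 203 reads. The repressor gene HSI2, also called VAL1, had OE3-1 peaks of 229 and 230 reads and an OE9-1 peak of 165. That OE9-1 peak, the only 1 of the list, met the edge of the gene with its midpoint 14 bp outside the span. HSL1, also called VAL2, had an OE3-1 peak of 211 reads. LEC1, ABI3 and the 5 bZIP genes held no peak in the span. With 1 kb on both sides, 9 of the 16 regulators had a peak of any line in place of 5, among them 2 bZIP genes. Over all protein-coding genes that share was 41.0%.

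**Figure D5:**
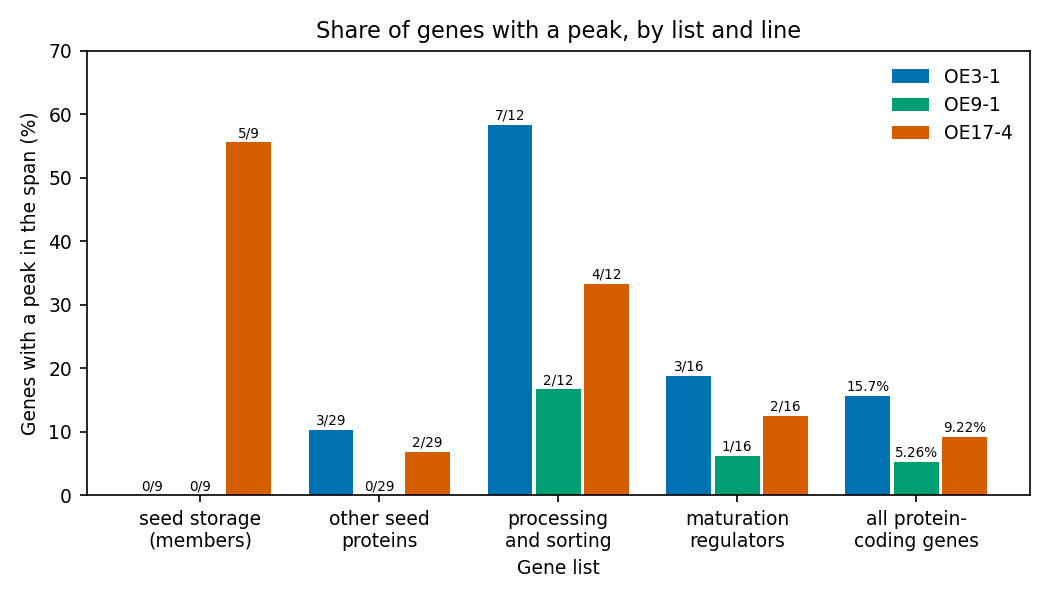
Percent of genes with a peak in the span in OE3-1, OE9-1 and OE17-4, for the seed storage protein genes, the 3 other lists and all protein-coding genes, with counts above the bars. The seed storage protein genes, chosen after OE17-4 peaks had been seen in them, stand at 5 of 9 in OE17-4 and 0 of 9 in both other lines. The other lists have peaks of at least 2 lines. Lists differ in number and length of genes, and the part of these was not tested.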

How the data were processed

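The authors deposited 1 peak list for each of the 3 ChIP libraries, so peaks were called per line. The genome build was TAIR10, per the submitters' processing notes. Aligner, peak caller and any use made of input reads were not given in the sources used here. Per the file headers, the values are counts of all, forward and reverse reads in a peak, an FDR in percent, a normalized strand difference, a Wilcoxon filter p-value and a length. The normalized difference deposited by the authors is a fraction, and it equalled the absolute strand difference over all reads within 0.006 in 100.0% of peaks of each list. Reads were not normalized.

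Empty rows were dropped. Regions listed again were dropped too, 1 in OE3-1 and 2 in each other list. Starts and ends are as deposited, and widths were taken as end minus start plus 1. Names and spans of genes were read from RefSeq (TAIR10.1), whose table holds no strand, exons or sequence. All 66 listed loci matched it. None of its coordinates are printed, and distances set its spans against TAIR10 peaks. In the check of that, 74.3% of OE17-4 midpoints lay in protein-coding genes, against 61.0% after a shift of 500 bp and 60.9% after -500 bp. The authors' gene column also named the same gene as the span for all 5 peaks.

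The members and lists were chosen with earlier results of these data known. No significance test was run. The genes named are all members, the bound genes of the lists, bound neighbours within 10 kb, and the 5 genes of like pattern. Bound means an overlap of 1 bp or more. Intervals are exact 95% (Clopper-Pearson) intervals, from scipy 1.17.1 with pandas 2.3.3. Alternatives were other limits of FDR, overlap and flank, the authors' gene column, and leaving out a line.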

Additional observations from a re-analysis of the deposited data

How the results depend on the processing

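Of 26 counts of bound members in OE17-4 or in any line under an alternative, 18 stayed within 1.5 times the main count and 8 moved. Many of the 18 could not move, because all 5 peaks were OE17-4 peaks lying wholly inside the span. Other rules of overlap, a narrower flank, or leaving out OE3-1 or OE9-1 left such counts at 5 by construction. Within the upper 50% of the OE17-4 list by FDR, and with an FDR of at most 1%, 3 of 9 members were bound in place of 5, in the span or within 1 kb, and in any line 3 were bound in the upper 50%. CRU2 and CRA1 are the genes lost, with FDRs of 1.11% and 4.78%. Leaving out a line gave 0 to 5 bound members in any line, with 0 without OE17-4, so every call rests on that library. With 2 kb on both sides 7 members were bound in OE17-4, which is among the 18 counts within 1.5 times. OE3-1 and OE9-1 were at 0 with 2 kb on both sides and by the authors' gene column. The other alternatives run for these lines only remove peaks or narrow the window, so a count of 0 stays 0 under them by construction. Leaving out the rows written with 3 dots, chosen after seeing the data, left 5 bound in OE17-4, since none of the 5 peaks is such a row. No paired analysis was possible because the inputs, which share the line names of the ChIP libraries, were not analysed here and the results come from no test. Depth is unknown, so a missing peak cannot be told from reads under the limits of a list.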

Other observations

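The enzymes and sorting factors that handle storage proteins were counted by line as well. Of 12 such genes, 7 had an OE3-1 peak (58.3%), 2 an OE9-1 peak (16.7%) and 4 an OE17-4 peak (33.3%), beside 15.7%, 5.26% and 9.22% of all protein-coding genes. These genes are long, with a median span of 3250 bp against 2078 bp over all, and the part of length in these counts was not tested. The storage protein genes have a median span of 830 bp and were chosen for OE17-4 peaks, so the lists are not compared by line. Among the 4 vacuolar processing enzyme genes, which encode the proteases that cut storage protein precursors, 3 had an OE17-4 peak. DELTA-VPE, known from the seed coat, had one of 231 reads with an FDR of 0.47%, and ALPHA-VPE one of 79 reads with an FDR of 1.71%. ALPHA-VPE also had an OE3-1 peak of 199 reads with an FDR of 3.49%, 1624 bp away. GAMMA-VPE, a vegetative form, had one of 128 reads at chr4:15901092-15901225, and its OE3-1 peak of 206 reads at chr4:15901168-15901200 lay inside it, an overlap of 33 bp. The authors' gene column named another gene for both GAMMA-VPE peaks (AT4G32930) and for the OE3-1 peak in ALPHA-VPE (ELF3). The seed form BETA-VPE (AT1G62710) had none in any line.

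The receptor VSR1 (AT3G52850), which sorts storage proteins to the vacuole, had an OE3-1 peak of 192 reads, and VSR3 (AT2G14740) had an OE3-1 peak of 272 reads and an OE9-1 peak of 159. The VSR3 peaks lay 2777 bp apart, and the authors' gene column named AT2G14730 for the OE9-1 peak. PDIL1-1, a protein disulfide isomerase, had an OE3-1 peak of 217 reads and an OE9-1 peak of 283, with a gap of 815 bp. MAG2 and AT5G47480 (MAG5), MAIGO genes of protein export, had OE3-1 peaks of 186 and 219 reads, and GC6 (MAG4) had OE17-4 peaks of 225 and 68 reads, the first of them named AT3G27520 by the authors. GAMMA-VPE was the only gene of the 4 lists where peaks of different lines overlapped. The FDRs of its peaks were 3.44% in OE17-4 and 4.02% in OE3-1, higher than the list medians of 1.08% and 2.35%. How often peaks of different lines overlap over all protein-coding genes was not counted.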
